A study of Homo sapiens with 12 samples.

Results

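The cytosolic ribosomal proteins are the protein parts of the large and the small subunit of the ribosome in the cytoplasm. Their transcripts were measured in 6 clones of PC9, a human lung adenocarcinoma cell line with an activating EGFR mutation, grown from single cells. Members were the detected probes whose annotated symbol was RPL or RPS with a number and at most 1 letter (A, L or X), plus RPLP0, RPLP1, RPLP2 and RPSA, without kinases or pseudogenes. The annotation gave 119 such probes of 72 genes, and 113 probes of 69 genes were detected, out of 16420 detected probes with 1 gene and 12250 genes. Of the 69 genes, 43 belong to the large and 26 to the small subunit. RPL10 (both of its probes), RPL10L and RPL3L were detected on 0 of the 12 arrays, and so was 1 of the probes of RPS27L. The RPL10 probes had mean scanner signals of -9.67 and -6.62 intensity units. Whether the RPL10 transcript was absent or these probes failed was not tested. The detected probe nearest to the limit was one of RPL37, found on 10 of 12 arrays, and the nearest below it was one of RPL36A, found on 1. RPLP0, RPSA and some other ribosomal protein genes are not analysed here.

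The tolerant clones, named D6, E1, E2, E3 and E6, grew despite gefitinib, an inhibitor of the EGFR kinase, and clone B7 was sensitive to it. Every sample carries the same treatment, gefitinib at 0.4 to 2 µM over 14 days, while the design also had plates that received the solvent DMSO. Whether B7 ever met the drug is not clear from the labels, so response to the drug, exposure and clone cannot be told apart. Each clone was measured on 2 Illumina bead arrays, and the sensitive group is 1 clone. No label says that the arrays of a clone came from separate cultures, so p-values over arrays measure only the spread between these arrays, which may be technical.

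Within a clone, both arrays gave nearly the same profile (Pearson's r of 0.995 to 0.997 over genes, a description). Of 7 epithelial markers, 6 were detected on all 12 arrays, and NKX2-1, a transcription factor of lung adenocarcinoma, was detected on 0. The leukocyte markers PTPRC, CD3E and CD3D were detected on 0 arrays. The summed scanner signal of that list was 140 to 368 intensity units on tolerant arrays, against 806 to 840 on B7 arrays, where LAPTM5 differed by -2.54 log2 units and CD14, the other measured gene of the list, by 1.22. For the fibroblast list it was 48.1 to 283 on tolerant arrays, against 33.9 to 74.4 on B7 arrays, with COL1A2, COL3A1, LUM and PDGFRB undetected, and for the endothelial list 177 to 374 on tolerant arrays, against 203 to 210 on B7 arrays, with VWF and CLDN5 undetected. The part of other cell types in the results was not tested. In bulk RNA a smaller share of expressing cells and less RNA per cell cannot be told apart.

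Ribosomal protein mRNAs are among the most abundant in growing cells, and the proteins are made in matched amounts because each ribosome takes a single copy of nearly all of them. Many of these mRNAs start with a C followed by an unbroken run of C and T, the 5′ terminal oligopyrimidine tract, through which the kinase mTOR adjusts their translation. A few genes have paralogs, such as RPL39L for RPL39 and RPS27L for RPS27. RPL5 and RPL11, and also RPS7, can bind MDM2, the ligase that degrades p53. EGFR signalling feeds into mTOR and into MYC, which drives genes of ribosome assembly.

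The start sites of members at both ends of the comparison and of members with small differences are shown because this tract is the shared feature of the family. RefSeq promoters on GRCh38.p14 were matched by Entrez gene number for 58 of the 69 genes, which gave 67 promoters. Each window holds 45 bases before the annotated start and 15 from it on, written on the strand of the gene, and the capitals mark the unbroken run of C and T through the start. RPL39L had no entry. The first set had lower levels in the tolerant clones.
RPL36A (chrX:101390966-101391025, plus strand): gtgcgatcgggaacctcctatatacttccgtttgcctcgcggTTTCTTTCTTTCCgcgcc
RPS7 (chr2:3575215-3575274, plus strand): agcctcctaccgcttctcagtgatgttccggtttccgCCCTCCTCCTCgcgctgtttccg
RPL29 (chr3:51995881-51995940, minus strand): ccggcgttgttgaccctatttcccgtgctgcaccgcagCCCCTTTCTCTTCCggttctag
RPS21 (chr20:62387058-62387117, plus strand): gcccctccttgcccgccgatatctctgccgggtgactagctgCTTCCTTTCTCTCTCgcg
The second set had higher levels in the tolerant clones.
RPL28 (chr19:55385887-55385946, plus strand): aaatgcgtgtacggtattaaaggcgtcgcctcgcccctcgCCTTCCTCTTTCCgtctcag
RPL22 (chr1:6199581-6199640, minus strand): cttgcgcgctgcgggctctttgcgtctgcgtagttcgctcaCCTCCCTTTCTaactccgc
RPL14 (chr3:40457294-40457353, plus strand): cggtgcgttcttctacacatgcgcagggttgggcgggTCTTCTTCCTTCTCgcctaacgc
RPS27L (chr15:63157463-63157522, minus strand): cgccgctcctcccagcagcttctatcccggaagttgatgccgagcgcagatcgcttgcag
The third set had differences near 0 on the brightest probe of each gene. Dimmer probes gave -1.60 for RPS24 and 0.13 and 0.64 for RPS27.
RPL39 (chrX:119791616-119791675, minus strand): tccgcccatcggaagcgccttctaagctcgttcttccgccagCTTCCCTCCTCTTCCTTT
RPLP2 (chr11:809922-809981, plus strand): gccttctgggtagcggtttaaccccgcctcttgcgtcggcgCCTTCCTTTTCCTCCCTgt
RPS24 (chr10:78033818-78033877, plus strand): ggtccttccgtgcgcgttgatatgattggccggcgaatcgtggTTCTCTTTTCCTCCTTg
RPS27 (chr1:153990717-153990776, plus strand): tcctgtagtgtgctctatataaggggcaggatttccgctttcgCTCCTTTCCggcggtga
A C at the start followed by 4 bases of C or T stood in 62.7% of the 67 promoters, against 4.07% of all 35116 promoters. Among the 12 windows it was missing in RPS7, whose run ends too soon after the start, and in RPS27L, which had no run. So 3 of the 4 windows in each of the first and second sets and 4 of 4 in the third set held it. In the whole promoter windows and on both strands, CCGGAAG (the core bound by ETS factors) was found in 37.3% of member promoters, against 10.3% of all promoters. CCATNTT (the core of the YY1 motif) stood in 23.9% of member promoters, against 15.6% of all promoters. TATAAA was found in 5.97% of member promoters, against 11.5% of all promoters, and CACGTG, the E-box bound by MYC, in 5.97% of member promoters, against 7.26% of all promoters. These are matches of letters and not measured binding.

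On the brightest probe of each gene, most ribosomal protein genes had nearly the same level in the tolerant clones as in B7. Of the 44 dimmer probes, 33 had a larger absolute difference than the brightest probe of their gene. The median difference over the 69 genes was 0.04 log2 units (45 above 0 and 24 below), against 0.0047 over all 12250 genes. The median size of a difference, without its sign, was 0.097 log2 units for the members, against 0.371 for all genes. In limma on 1 mean per clone, 0 of 69 members passed an adjusted p of 0.05, where 2.83% of all genes did (1.40% higher and 1.44% lower). At an unadjusted p under 0.05, 12 members passed, while 25.2% of all genes did. Differences under 0.1 were found for 35 members and differences over 0.5 for 13. A change of at least 2-fold was measured for 3 members (RPL36A, RPS7 and RPS27L), against 14.6% of all genes. All 10 tolerant arrays lay above both B7 arrays for 17 members, which compares with 20.7% of all genes, and below them for 7, which compares with 22.1%.

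**Figure D1:**
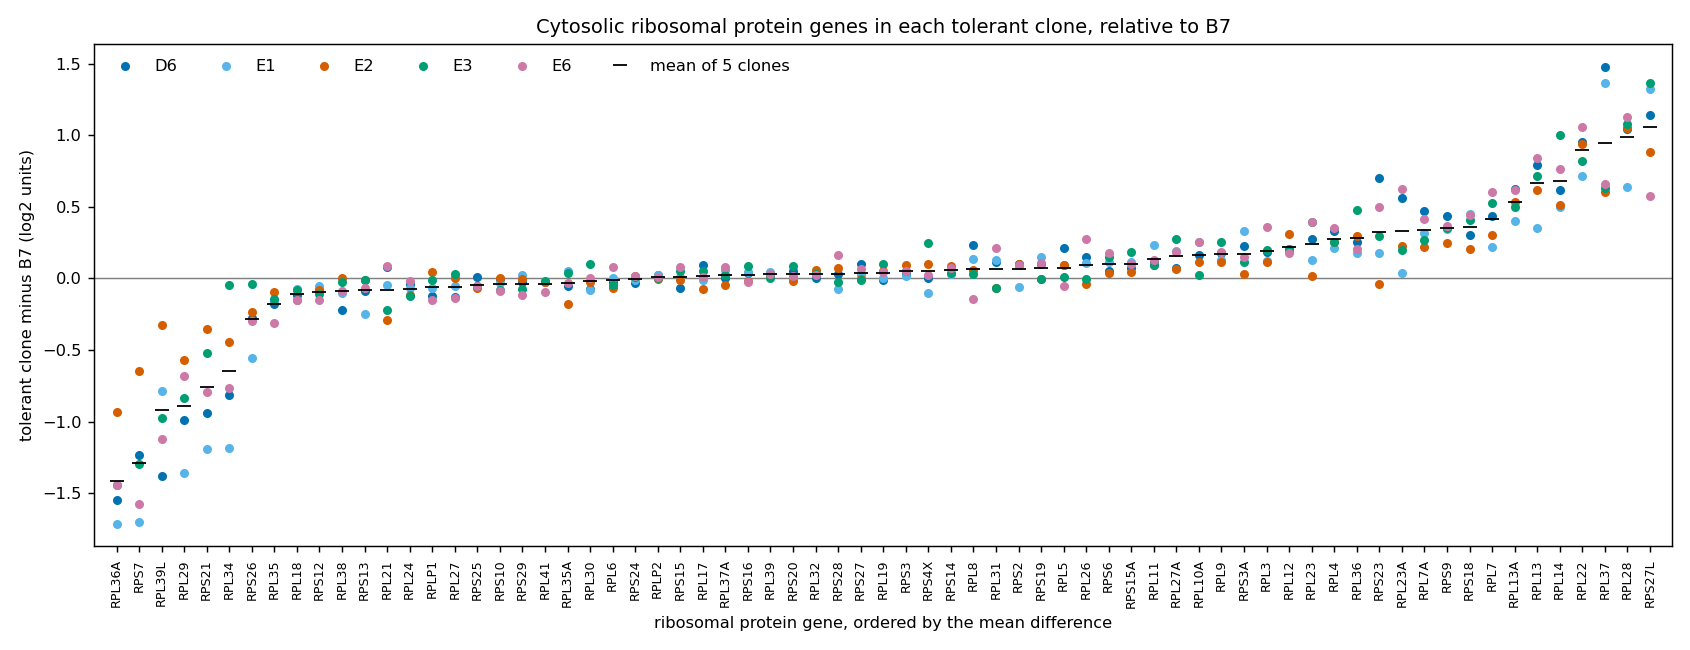
Difference of each tolerant clone from B7 (vertical axis, log2 units) for the 69 ribosomal protein genes, ordered by their mean difference, with a coloured point for each clone and a dash for the mean of the 5 clones. RPL36A and RPS7 lie at the low end (-1.42 and -1.29) and RPS27L and RPL28 at the high end (1.06 and 0.99), and 35 genes differ by under 0.1 on average.

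The large subunit had a median difference of 0.06 (43 genes) and the small subunit of 0.03 (26 genes). By place in the ribosome, the proteins around the exit tunnel had a median of 0.06 (9 of 9 measured) and the head of the small subunit of 0.03 (11 of 14). The body of the small subunit had a median of 0.06 (14 of 17). RPL5 and RPL11, which join the ribosome together with 5S rRNA, differed by 0.07 and 0.13. The stalk, which recruits elongation factors, was represented by RPLP1, RPLP2 and RPL12, with differences of -0.06, 0.01 and 0.22. RPLP2 averaged 15.53 ± 0.01 in the tolerant clones (SD, n = 5) and stood at 15.55 and 15.49 on the B7 arrays, so that the groups overlapped. The 95% interval of its difference was -0.38 to 0.40. RPL3, which lines the peptidyl transferase centre, stood at 14.91, 14.85, 14.84, 14.93 and 15.08 in D6, E1, E2, E3 and E6 and at 14.72 and 14.73 on the B7 arrays. Its difference was 0.19 ± 0.18 (SE, limma adjusted p = 0.539).

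Among the members with lower levels in the tolerant clones, RPL36A, a protein of the large subunit next to the tRNA exit site, differed most. Its level was 9.24, 9.07, 9.85, 9.34 and 9.34 in D6, E1, E2, E3 and E6, against 10.76 and 10.81 on the B7 arrays. No tolerant array overlapped B7, and the difference of -1.42 ± 0.29 (SE) corresponds to 2.67-fold, with a limma adjusted p of 0.0546 on clone means. Its paralog RPL36AL, on its brightest probe, differed by 0.0035 ± 0.20. RPS7, a protein of the small subunit body, had 11.06, 10.59, 11.64, 11.00 and 10.72 in the same order of clones, against 12.33 and 12.26 in B7. E2 was the nearest to B7 and E1 the farthest. The difference was -1.29 ± 0.37 (limma adjusted p = 0.105), and a second RPS7 probe gave -1.38. RPL39L, a paralog of the exit tunnel protein RPL39 known from testis and from tumour cell lines, had 10.73, 11.33, 11.78, 11.13 and 10.99, against 12.13 and 12.09 in B7. Its difference was -0.92 ± 0.37 (limma adjusted p = 0.181), and its other probe gave -0.90. RPL39 itself, on its own probe, differed by 0.03 ± 0.16.

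RPL29, on the surface of the large subunit, had 9.83, 9.46, 10.25, 9.98 and 10.13 in D6, E1, E2, E3 and E6, against 10.75 and 10.89 on the B7 arrays, without overlap. Its 2 probes differed by -0.89 and -0.91. RPS21, a small subunit protein, had 12.38, 12.12, 12.96, 12.79 and 12.52, against 13.40 and 13.23 in B7, and differed by -0.76 ± 0.32 (limma adjusted p = 0.197). The large subunit protein RPL34 had 11.80, 11.42, 12.17, 12.56 and 11.85, against 12.64 and 12.58 in B7. Over arrays, E3 did not pass against B7 for RPL34 (limma adjusted p = 0.664), and the other 4 tolerant clones were lower. Its second probe went the other way (0.70), so the direction of RPL34 depends on the probe. RPS26, near the mRNA exit of the small subunit, and RPL35, at the exit tunnel, differed by -0.28 and -0.18, and the arrays of this RPS26 probe overlapped between the groups. The dimmer RPS26 probe had 7.17, 6.82, 8.12, 7.51 and 7.59 in D6, E1, E2, E3 and E6, against 8.66 and 8.61 on the B7 arrays, a difference of -1.19 without overlap.

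At the other end, RPS27L, a paralog of RPS27 whose gene is induced by p53, had 12.71, 12.90, 12.45, 12.93 and 12.14 in D6, E1, E2, E3 and E6, against 11.57 and 11.57 on the B7 arrays. All tolerant arrays lay above B7, and the difference of 1.06 ± 0.32 (SE) corresponds to 2.08-fold (limma adjusted p = 0.113). RPS27, on its brightest probe, differed by 0.04 ± 0.17, and its 2 dimmer probes differed by 0.13 and 0.64. RPL28, a large subunit protein that budding yeast lacks, had 10.94, 10.53, 10.94, 10.97 and 11.02, against 9.93 and 9.86 in B7. The difference was 0.99 ± 0.23 (limma adjusted p = 0.0704). RPL22, an RNA-binding protein at the outside of the exit tunnel, had 11.53, 11.30, 11.52, 11.40 and 11.64, against 10.63 and 10.53 in B7. The difference was 0.90 ± 0.20 (limma adjusted p = 0.0635), while its paralog RPL22L1 differed by -0.06 ± 0.25.

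RPL37, a large subunit protein, had 8.44 and 8.32 in D6 and E1 and 7.57 to 7.62 in E2, E3 and E6, against 7.10 and 6.82 on the B7 arrays. Its difference was 0.95 ± 0.39 (limma adjusted p = 0.193), and its dimmer probe differed by -0.01. RPL14 and RPL13, both of the large subunit, differed by 0.68 and 0.66. The other probe of RPL14 gave only 0.18, and that of RPL13 gave -0.64. RPL13A, which besides its place in the ribosome takes part in translational silencing after interferon gamma, had 14.89, 14.67, 14.80, 14.77 and 14.89, against 14.26 and 14.28 in B7. It differed by 0.53 ± 0.18 (limma adjusted p = 0.138). RPL7 differed by 0.42 ± 0.21.

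**Figure D2:**
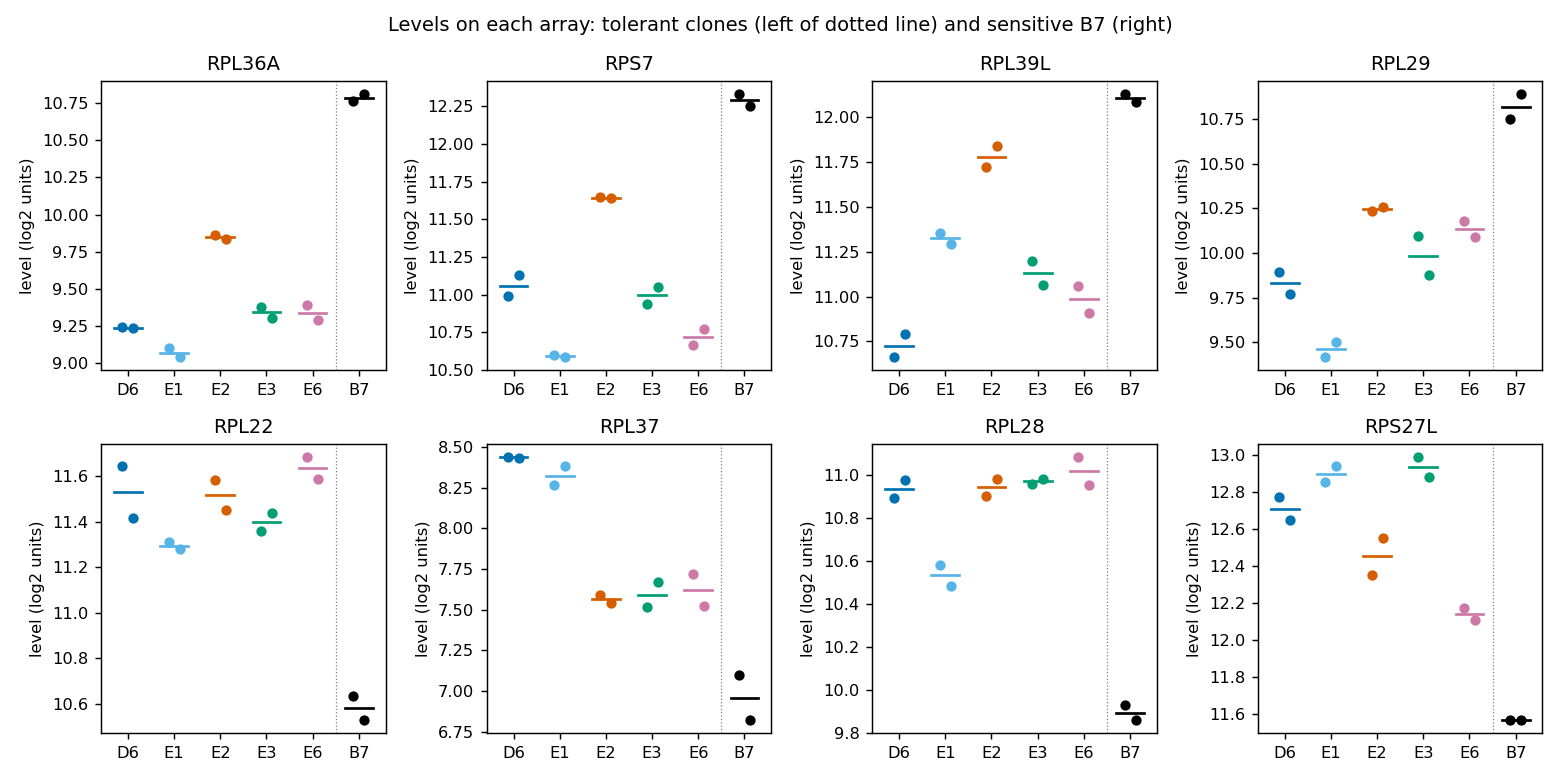
Normalized log2 level on each of the 12 arrays for the 4 members with the lowest and the 4 with the highest differences, tolerant clones left and B7 right, with a line at the mean of each clone and an axis of its own for each gene. In every panel the 10 tolerant arrays lie entirely on one side of the 2 B7 arrays. The members shown were picked by the size of this same difference. Among all genes, 20.7% lay entirely above the B7 arrays and 22.1% entirely below.

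The calls between clones depended on clone E2 and on the model. Without E2, 2 members passed as higher and 3 as lower, where 8.56% of all genes were higher and 8.79% lower. RPL22 and RPL28 were the higher ones (limma adjusted p = 0.0349 and 0.0414). For RPL36A the difference without E2 was -1.54 (adjusted p = 0.00779), for RPS7 -1.45 (adjusted p = 0.015) and for RPL39L -1.07 (adjusted p = 0.038). With all 12 arrays in limma and the clone as a random block, 4 members were higher (RPL14, RPL22, RPL28 and RPS27L) and 3 lower (RPL29, RPL36A and RPS7), where 8.09% of all genes were higher and 6.48% lower. Of the 8 members with the lowest differences, E2 was the tolerant clone nearest to B7 in 6 and E3 in 2. Among the 8 with the highest differences, E1 was nearest in 6. Over all 69 members, E2 was nearest in 27, E1 in 19 and E3 in 13.

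Over arrays, B7 was the common comparator of all tolerant clones, so these 5 comparisons share its arrays. In D6, 16 members were higher and 8 lower, where 32.0% of all genes were higher and 32.4% lower (64.3% in either direction). In E1, 15 were higher and 8 lower, with 32.4% and 33.1% of all genes (65.5%). In E2, 13 were higher and 7 lower, with 24.4% and 22.7% of all genes (47.1%). In E3, 20 were higher and 6 lower, with 29.5% and 30.0% of all genes (59.6%). In E6, 19 were higher and 8 lower, with 30.1% and 31.2% of all genes (61.3%). As shares of the members, the calls came to 34.8% in D6, 33.3% in E1, 29.0% in E2, 37.7% in E3 and 39.1% in E6. The counts depended on the scaling: median scaling gave 6 members higher in D6, 3 in E1 and 12 in E6, and scaling to the 75th percentile gave 52, 38, 20, 53 and 45 in D6, E1, E2, E3 and E6. Higher in all 5 clones were 9 members (RPL4, RPL13, RPL13A, RPL14, RPL22, RPL28, RPL37, RPS9 and RPS27L), where 14.6% of all genes were. Lower in all 5 were 5 members (RPL29, RPL36A, RPL39L, RPS7 and RPS21), where 14.0% of all genes were. In opposite directions in different clones 0 members were called, where 7.52% of all genes were, and 31 members were called in no clone, where 14.6% of all genes were.

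Some members varied among the tolerant clones, but the median member varied less than the median gene. The median SD of a member over the 5 clones was 0.087 log2 units, against 0.237 for all genes, and the median SD between arrays of a clone was 0.061, against 0.110. A moderated F test in limma found differences between the tolerant clones for 20 of 69 members, while 73.0% of all genes passed it. This count was 44 with scaling to the 75th percentile, 31 with the mean over probes and 36 with an intensity trend. In the main fit the largest F values belonged to RPL34, RPS7, RPL39L, RPL37, RPL36A and RPS21, all with adjusted p of 9e-05 or lower. RPS7 was 0.80 log2 units higher in E2 than in the mean of the other 4 tolerant clones (limma adjusted p = 3.07e-06). RPL34 was higher in E3 by 0.76 (adjusted p = 1.83e-05) and lower in E1, with a difference of -0.67. RPL37 was higher in D6 by 0.66 (adjusted p = 0.000202) and RPS27L lower in E6, with a difference of -0.61 (adjusted p = 0.000157). Set against the other 4 tolerant clones, D6 had 4 members higher and 3 lower, where 18.2% of all genes were higher and 19.8% lower (38.0% in either direction). In E1, 2 were higher and 15 lower, with 24.0% and 22.3% of all genes (46.3%). In E2, 6 were higher and 10 lower, with 26.4% and 26.8% of all genes (53.2%). In E3, 8 were higher and 1 lower, with 15.5% and 16.3% of all genes (31.7%). In E6, 8 were higher and 4 lower, with 16.5% and 16.4% of all genes (32.9%).

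Brightness went along with the size of the difference. Of the 69 probes used, 50 were among the brightest 1% (472) of all probes on the array. The highest scanner signal of a member was 58596 intensity units, and of any probe 61392. The 50 members over 14 log2 units had a median absolute difference of 0.064, against 0.68 for the 19 members below it. For the 101 other genes over 14 the median was 0.151. Across the 69 members, level and absolute difference had a Spearman correlation of -0.75, against 0.16 across all genes. These are correlations across genes, given as a description. The part of scanner brightness in the size of the differences was not tested.

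**Figure D3:**
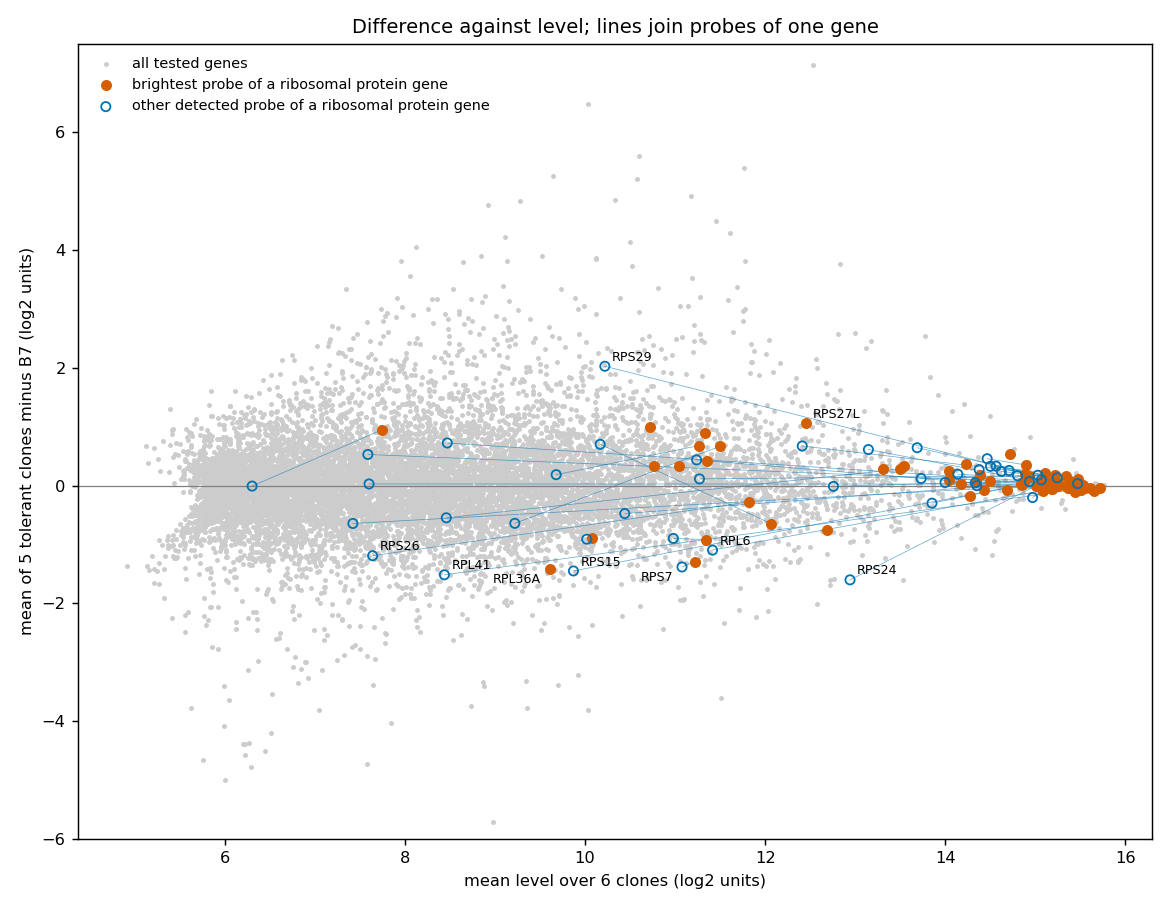
Mean difference between tolerant clones and B7 against mean level over the 6 clones (both log2 units), for all tested genes (grey), the brightest probe of each ribosomal protein gene (orange) and its other detected probes (blue, joined by lines). Bright member probes lie near 0, while dimmer probes of the same genes spread from -1.60 to 2.03.

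Probes of one gene did not always give one value. Of the 69 genes, 32 had more than 1 detected probe, with 44 dimmer probes, of which 33 had a larger absolute difference than the brightest probe of their gene. In 11 genes the probes differed in sign. Over all 16420 detected probes, 1 of the 113 member probes passed, where 2.66% of all did. This was probe ILMN_2298818 of RPS29, a zinc-binding protein of the small subunit head. It stood at 10.69, 10.46, 9.86, 10.85 and 10.92 in D6, E1, E2, E3 and E6, against 8.52 and 8.54 on the B7 arrays. Its difference was 2.03 ± 0.39 (SE, limma adjusted p over probes = 0.0474). The other RPS29 probes differed by -0.04, 0.03 and 0.18. A dimmer probe of RPS24 differed by -1.60 where the brightest did by -0.0005, and one of RPL41 by -1.52 where the brightest did by -0.04. One of RPS15 differed by -1.45 where the brightest did by 0.01. The 3 dimmer probes of RPL32 differed by -0.64, 0.53 and 0.72. For these genes the level is uncertain between probes. The probes of RPS24, RPS29 and RPL32 were annotated to different transcripts of the gene, and those of RPL41 and RPS15 to a single transcript each. The part of transcript variants in these differences was not tested. Ribosomal protein genes have many near-identical copies in the genome, and signal from such copies cannot be told apart here.

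Taken relative to the median member on each array, 0 members passed, where 3.03% of all genes did, and RPL36A stood at -1.54 (limma adjusted p = 0.051). The members' median difference was 0.04 after quantile normalization, 0.04 after median scaling, 0.26 after scaling to the 75th percentile and 0.08 in the authors' deposited values. Median scaling moved the median of all genes by -0.20. On the scanner the median signal of the members was 27654 to 33587 intensity units on tolerant arrays, against 29763 and 30731 on the B7 arrays. The 75th percentile of all probes was 80.1 to 118 on tolerant arrays, against 130 and 133 on the B7 arrays.

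The genes that build ribosomes had mostly negative differences. Of 57 listed assembly genes 52 were measured, 50 with a negative difference, and the median was -0.82 log2 units. None passed on clone means. Without E2 21 of 52 passed, where 17.3% of all genes did, and with the clone as a random block 14 of 52 passed, where 14.6% of all genes did. BOP1, which acts in processing of large subunit rRNA, differed by -1.92 ± 0.64 (limma adjusted p = 0.132), and NOP56, a box C/D snoRNP protein, by -1.64 ± 0.67 (adjusted p = 0.188). The list's median was -1.02 in D6, -1.15 in E1, -0.36 in E2, -0.80 in E3 and -0.74 in E6, nearest to 0 in E2. The mitochondrial ribosomal proteins (79 genes, 67 negative) had a median of -0.40, and again none passed on clone means. Without E2 9 of 79 passed and with the random block 8, against the same shares of all genes. MRPL35 differed by -1.16 and MRPS6 by -1.13. No test compared these lists with the members.

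Other genes with a pyrimidine tract had a median of 0.13 (22 of 23 listed genes measured, 14 above 0 and 8 below), and 0 passed. EPB41L4A-AS1, a host of a small nucleolar RNA, differed by 1.49 ± 0.32 (limma adjusted p = 0.060), and SNHG8 by 1.01 ± 0.30 (adjusted p = 0.108). These were the largest differences of the list. The regulators of growth upstream of ribosome synthesis had a median of -0.10 (18 of 21 measured). The stress-induced mTOR inhibitor DDIT4 differed by 1.43 ± 0.64 (adjusted p = 0.217) and the MAX partner MXD4 by 1.41 ± 0.42 (adjusted p = 0.110). Of the paralogs that the rule leaves out, RPL26L1 differed by -0.83 ± 0.25 and RPL7L1 by -0.15. FAU, which encodes a ubiquitin-like protein fused to a small subunit protein, differed by -0.11.

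**Figure D4:**
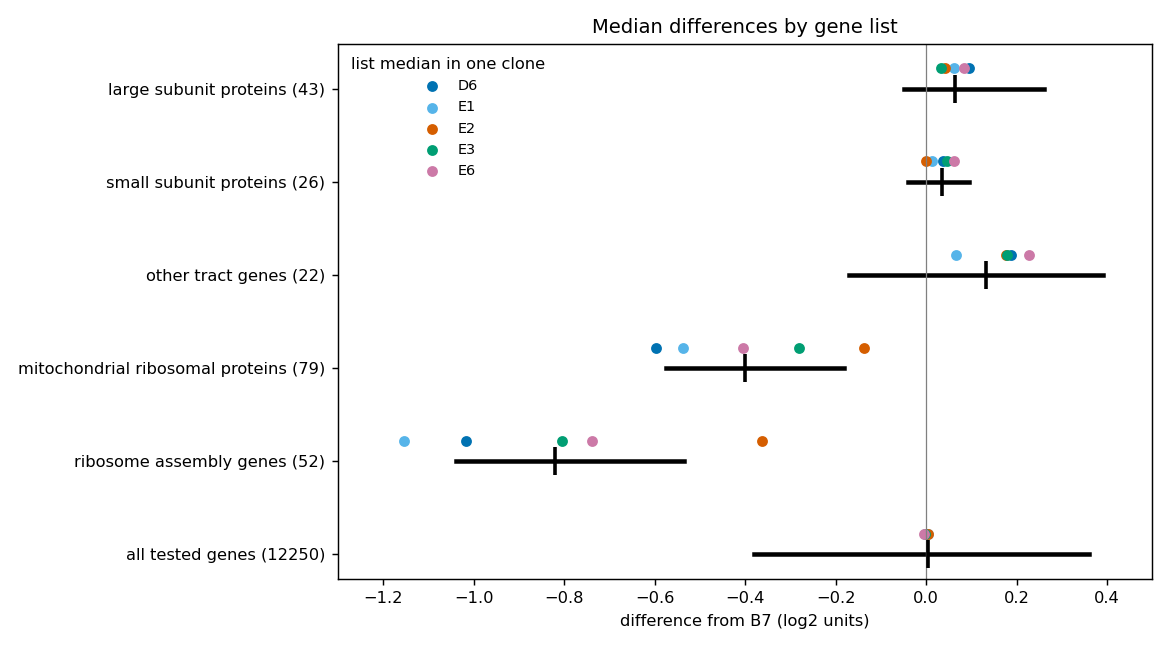
Median difference from B7 (log2 units) of 5 gene lists and of all tested genes, with the interquartile range of the genes as a bar, the list's median as a black tick and each tolerant clone's median as a point. The cytosolic large and small subunit lists lie near 0, the mitochondrial ribosomal proteins at a median of -0.40 and the assembly genes at -0.82, with E2 at -0.36.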

How the data were processed

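RNA of 12 samples was hybridised to Illumina bead arrays. The deposited table holds background-subtracted scanner intensity, since part of each array lies below 0, and its 12 detection p-value columns are empty; the authors' processed values are intensity normalized between arrays with a floor of 20. The normalization method is not given in the sources used here. Gene names came from the platform annotation, updated through Entrez numbers.

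From the scanner intensity, normexp (saddle-point, offset 16), quantile normalization and log2 were applied with limma 3.58.1 in R 4.3.3. Negative values gave each array's noise (their root mean square), in place of the planned detection p-values. Probes above 2.33 times the noise counted as detected, and those detected on both arrays of any clone were kept. The brightest kept probe stood for a gene. Clone means were fitted with lmFit and eBayes (4 residual degrees of freedom, B7 alone is taken to have the spread of the tolerant ones), and the 12 arrays in a fit with 6. Tests were 2-sided, with Benjamini-Hochberg adjustment over all genes, and calls were made under 0.05. The number of arrays limits the precision. Members and lists were chosen with earlier results of these data known. The rule named the 8 highest and 8 lowest members, the 6 with the largest F, paralogs with their parents, stalk proteins, the 5 genes whose probes differ most and 2 per list.

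On simulated data for 12250 genes, the clone-level test recovered 16.4, 70.1 and 95.5% of genes changed by 1, 2 and 4 log2 units, and D6 against B7 over arrays recovered 88.1, 100 and 100%. Alternatives were other scalings and offsets, no filter, the authors' values, the mean over probes, an intensity trend, clone or replicate number as a block, and leaving out arrays or clones; the dimmest kept probe was added after seeing the data.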

Additional observations from a re-analysis of the deposited data

Results flagged for a closer look

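In 2 of 53 groups of tolerant clone means tested, 1 clone stood apart from the other 4, where chance gives about 1 in 20. RPL41 stood at a mean of 15.5411 in E6, below the other tolerant clone means, and RPL28 at 10.5338 in E1, also below the others. For RPL41 the clone means spanned only 0.08 log2 units. Its E6 arrays (15.50 and 15.58) overlapped arrays of other tolerant clones. The moderated F test in limma did not call RPL41 (adjusted p = 0.870).

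The moderated F test in limma called 20 of 69 members between the tolerant clones, where 73.0% of all genes passed. The 13 of them that the naming rule covers are given here with the span of the clone means in log2 units. It was 1.14 for RPL34, 1.06 for RPL39L, 1.05 for RPS7 and 0.87 for RPL37. It was 0.84 for RPS21, 0.79 for RPS27L, 0.78 for RPL29 and 0.78 for RPL36A. It was 0.52 for RPS26, 0.50 for RPL14, 0.49 for RPL28, 0.49 for RPL13 and 0.38 for RPL7, with an adjusted p of 0.0333 for RPL7 and lower ones for the others.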

How the results depend on the processing

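The clone-level counts of 0 higher and 0 lower members held under no background correction, an intensity trend, the mean over probes, no filter, an offset of 50, the authors' values, median scaling and centring on the median member. Exceptions were 75th percentile scaling (1 lower, RPL36A), the clone as a random block (4 higher and 3 lower) and the dimmest kept probe (1 higher, RPS29, at 2.03). Leaving out a clone or an array gave 0 to 2 higher and 0 to 3 lower members, and a median difference of 0.0181 to 0.0618. The median was 0.257 with the 75th percentile, 0.0801 in the authors' values and -0.0905 relative to the median member. Centring subtracts the median level of the members on each array, which does not fix the median of their differences. That median level was higher on every tolerant array than on the B7 arrays, so centring lowered the differences.

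Against B7, members higher were 6 in D6, 3 in E1 and 12 in E6 with median scaling, and 52, 38, 20, 53 and 45 in D6, E1, E2, E3 and E6 with the 75th percentile. Without a filter 8 were higher in E2. With the mean over probes 13, 14, 11, 11 and 13 were lower. Against the other 4 clones, median scaling gave 15 in D6 and 5 in E6, the 75th percentile 27 in D6 and 29 in E2, no filter 4, 10 and 4 in D6, E2 and E6, the mean over probes 12, 25 and 15 in D6, E2 and E3, and an intensity trend 13, 15 and 21 in D6, E3 and E6. The F test called 44 with the 75th percentile, 31 with the mean over probes and 36 with a trend. Leaving out an array gave 7 to 13 higher and 4 to 7 lower in E2, and 13 to 20 higher in E3. Against the others it gave 3 to 9, 9 to 16, 5 to 10 and 5 to 12 in D6, E2, E3 and E6.

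Signs reversed for members near 0 and, between probes, for RPL34, RPL13 and RPL37. RPS29 was 0.0122, 0.231, 0.0182 and 0.549, and RPL41 0.00648, 0.225 and 0.0124, with median scaling, the 75th percentile, the authors' values and, for RPS29, the mean over probes. The 75th percentile gave RPLP1 0.177 and RPS24 0.199. The mean over probes gave RPL34 0.0256, RPLP1 0.124 and RPS15 -0.579. Relative to the median member, RPL39 was -0.101, RPS27 -0.0922, RPLP2 -0.118, RPS15 -0.117 and RPL32 -0.0977. The dimmest probe gave RPL34 0.701, RPL13 -0.642, RPL37 -0.00914, RPLP1 0.435, RPS15 -1.45 and RPL32 -0.644. Leaving out arrays or clones gave RPS24 -0.0540 to 0.0530, RPS15 -0.0239 to 0.0481, RPLP1 -0.151 to 0.0293 and RPLP2 -0.0173 to 0.0386. Over 26 named members and 28 alternatives, 679 values kept direction and side, 36 reversed and 13 newly passed.

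The replicate numbers did not pair samples (r of -0.025 to 0.054 over 15 pairs of clones, 0 over 0.1). With the replicate number as a block the F test called 21 members, and against B7 there were 17, 13, 13, 18 and 19 higher and 8, 8, 7, 6 and 8 lower in D6, E1, E2, E3 and E6. Slide as a block was not run, since column names give no slide. The number of clones limits what the clone-level test can find. The cause of these shifts was not tested.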
